A study of Triticum aestivum with 12 samples.

Results

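Fully irrigated bread wheat sprayed with the microalgal biostimulant LRM was set against fully irrigated wheat sprayed with water. The comparison used 6 of the 12 libraries of the study, 3 from LRM-sprayed plants (irrigated_LRM) and 3 from water-sprayed plants (irrigated_water), chosen by the spray and the irrigation volume that the labels give. All libraries hold polyA RNA from leaves of wild type Triticum aestivum, line 'Chinese Spring L42'. Irrigated plants received 180 ml at each of 2 waterings a week, and LRM went onto the foliage at 0.5% from the day after planting and every 14 days. The other 6 libraries come from droughted plants given 30 ml, with the same sprays (drought_LRM and drought_water, 3 each), and serve here as a yardstick. The comparison asks what the spray alone did to leaf transcripts in plants that had enough water. Plant age is not given, and the libraries of a group are numbered without being said to come from separate plants. The p-values therefore reflect the spread among these samples only, which may in part be technical.

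Biostimulants are preparations applied in small amounts that are meant to improve growth or stress tolerance without acting mainly as a fertilizer. Extracts of microalgae can bring amino acids, sugars, minerals and hormone-like compounds to the leaf surface. Bread wheat is a hexaploid that carries the subgenomes A, B and D, so most of its genes exist as near-identical copies on corresponding chromosomes.

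The gene identifiers of the deposited table carry a chromosome arm (5AS is the short arm of chromosome 5A) but no name, and 0 of 99386 matched the RefSeq gene table of wheat. Genes are therefore described by identifier, arm and level, and pathway and leaf cell type lists could not be applied. Reads of one copy may have been counted for another, so the value of each gene named here is uncertain in that respect. Levels are CPM, a gene's count as a proportion of the library's total count, scaled by TMM, a correction for differences in composition between libraries. Totals were 37455388, 31381925 and 41695671 counts in irrigated_LRM 1 to 3 and 32655769, 44596075 and 34048978 counts in irrigated_water 1 to 3. After removal of the lowest counts 57226 genes were tested.

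No gene separated the sprays under full irrigation in the main test. The quasi-likelihood test of edgeR called 0 of 57226 genes (0%) at an adjusted p below 0.05, and the smallest adjusted p was 0.319, shared by 24 genes. An unadjusted p below 0.05 was found for 4977 genes (8.70%), of which 2497 (4.36%) were higher and 2480 (4.33%) lower in irrigated_LRM. The p-values below 0.1 made up 15.1% of all, against 8.71% to 9.35% in each interval of the same width above 0.4. Limma-voom also called 0 genes, with a smallest adjusted p of 0.378. DESeq2 gave an adjusted p for 15423 genes and called 251 of them (1.63%), 131 higher and 120 lower in irrigated_LRM. In the same edgeR fit, the same sprays under drought differed in 4859 genes (8.49%), 2439 higher and 2420 lower in drought_LRM, and that count was 1700 without drought_water 3, 2550 without drought_water 2, 2791 without drought_LRM 1, and 3332 to 5316 without any other single library. Without irrigated_LRM 1, 1561 genes were higher in irrigated_LRM at an unadjusted edgeR p below 0.05. The adjusted test of edgeR called 2 genes without irrigated_LRM 3 and 3 genes without irrigated_water 1, which are described further on.

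Pairs of irrigated libraries from different sprays overlapped in distance with pairs from the same spray. Distance was taken as the SD of the log2 ratio of 2 libraries over the 18235 genes that averaged 5 CPM or more. It was 0.218 to 0.358 (mean 0.297) in the 9 pairs of an irrigated_LRM with an irrigated_water library. The 3 pairs within irrigated_LRM lay at 0.222 to 0.273 (mean 0.250), and the 3 pairs within irrigated_water at 0.188 to 0.344 (mean 0.286). The 9 pairs of a drought_LRM with a drought_water library lay at 0.348 to 0.638 (mean 0.496). Between 8 and 229 genes differed 2-fold or more in a pair of irrigated libraries from different sprays, against 38 to 78 in a pair within irrigated_LRM and 19 to 245 in a pair within irrigated_water.

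**Figure D1:**
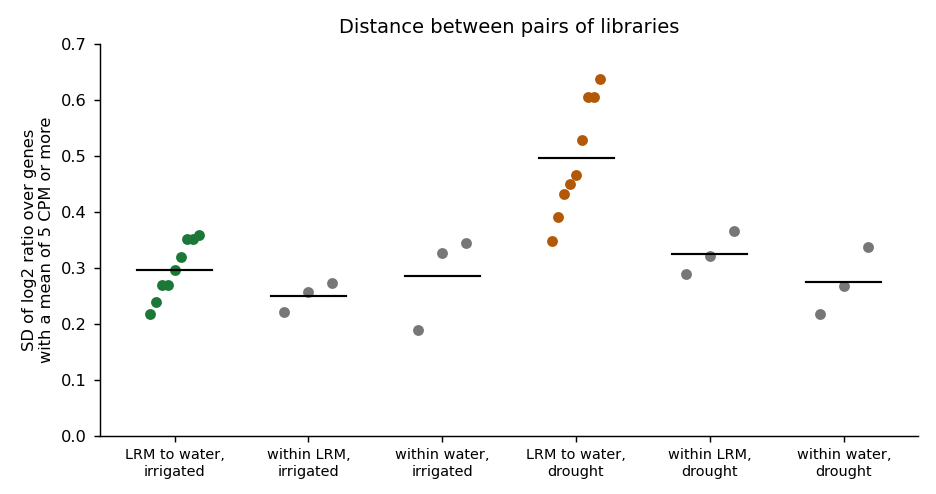
Each point is a pair of libraries, the y axis is the SD of their log2 ratio over genes that averaged 5 CPM or more, and black lines are the means over pairs. The irrigated LRM to water pairs (mean 0.297) overlap with the pairs within irrigated groups, while the drought LRM to water pairs have a mean of 0.496.

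The main axis among the 6 irrigated libraries did not separate the sprays. The first principal component of log2 CPM held 40.8% of the variance, with scores of 23.4, 0.394 and -2.77 for irrigated_LRM 1 to 3 and 17.0, -18.9 and -19.2 for irrigated_water 1 to 3. Replicates 1 of both sprays thus had the highest scores on it. Among the others, irrigated_LRM 2 and 3 scored above irrigated_water 2 and 3, so the axis also held a difference between the sprays. The second component held 31.0%, with scores of 13.4, 17.2 and 2.61 in irrigated_LRM and -26.2, -5.26 and -1.72 in irrigated_water, so the groups did not overlap there. Traes_4BS_6A4AC84DB, an abundant gene chosen after its values were seen, was high in both replicates 1. It had 1267, 308 and 266 CPM in irrigated_LRM 1 to 3, and 1404, 211 and 248 CPM in irrigated_water 1 to 3. Its edgeR log2 fold change was -0.017 (SE 0.87), with 1 high library on each side.

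The log2 fold changes between sprays were centred on 0 and narrow wherever the counts were high. Over all tested genes the median log2 fold change, irrigated_LRM over irrigated_water, was -0.0011, and the 5th and 95th percentiles were -0.64 and 0.58. Genes that averaged 5 CPM or more had an SD of log2 fold changes of 0.24 between the sprays under full irrigation and of 0.46 between the sprays under drought. In irrigated_LRM 879 genes had a log2 fold change of at least 1 and 1047 of at most -1. Of these, 801 and 961 had a mean under 1 CPM, where a few counts decide a ratio.

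**Figure D2:**
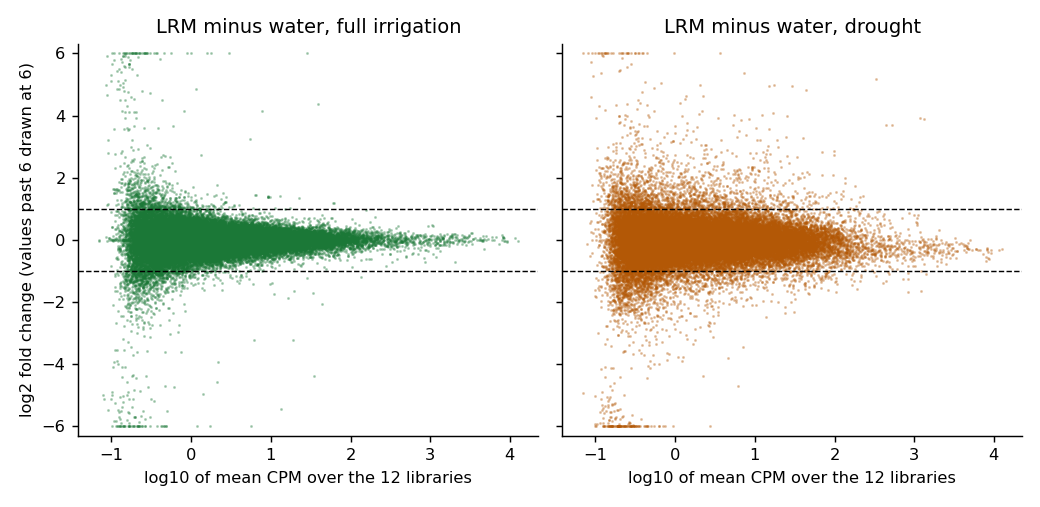
Log2 fold change of LRM over water (y axis) against log10 of mean CPM (x axis) for 57226 genes, under full irrigation on the left and drought on the right; dashed lines mark a 2-fold change. Under full irrigation the cloud narrows towards high CPM, where few genes leave the band (SD 0.24 at 5 CPM and over), while under drought genes at all levels lie outside it (SD 0.46).

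Confidence intervals show which sizes of change the data leave room for. Each interval is the 95% interval of a gene's log2 fold change from limma-voom, taken gene by gene. The whole interval lay inside a 2-fold change either way for 39740 of 57226 genes (69.4%). It lay inside 4-fold for 90.1% and inside 1.5-fold for 39.2%. With 2 one-sided limma tests per gene against 2-fold, adjusted over all genes, 41414 genes passed at 0.05. The median interval reached 1.39-fold to either side of the estimate.

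The bound depended on the level of the gene. Among the 18235 genes that averaged 5 CPM or more, 17768 (97.4%) had an interval inside 2-fold, and 467 did not. Leaving out any single library put this share between 95.3% and 98.0%. For the sprays under drought the intervals of 89.0% of the same genes lay inside 2-fold. In the tier from 5 to 20 CPM (12996 genes) the median interval reached 1.23-fold, and 78.8% of genes lay inside 1.5-fold and 97.2% inside 2-fold. In the tier from 20 to 100 CPM (4280 genes) the shares were 87.0% and 98.3%, and at 100 CPM and over (959 genes) they were 87.3% and 97.3%.

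Low genes were bounded less tightly. From 1 to 5 CPM (21929 genes) the median interval reached 1.39-fold, with 85.4% of genes inside 2-fold and 34.5% inside 1.5-fold. Under 1 CPM (17062 genes) it reached 2.11-fold, and only 19.1% lay inside 2-fold and 68.8% inside 4-fold, so the intervals of most of them left room for a 2-fold change at this depth. Of the 17486 genes whose interval went past 2-fold, 13811 were in this tier. Counting error alone gave a median SE of 0.295 on the log2 scale under 1 CPM and of 0.014 at 100 CPM and over, while the SE from the spread between libraries was 0.504 and 0.119. Counting error was a small share of the SE at high levels.

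**Figure D3:**
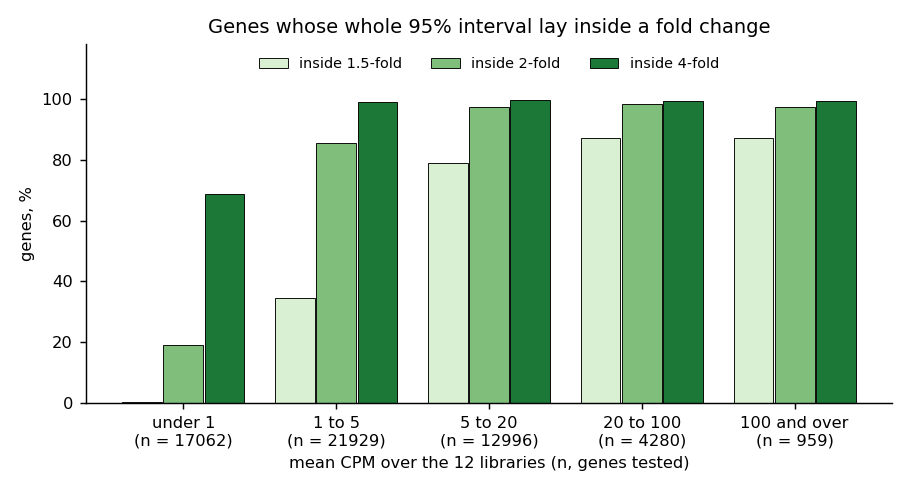
Percent of genes (y axis) whose 95% interval for irrigated_LRM over irrigated_water lay wholly inside 1.5-fold, 2-fold or 4-fold, by mean CPM over the 12 libraries (x axis, with the number of genes). At 5 to 20 CPM 97.2% of genes lay inside 2-fold, against 19.1% under 1 CPM.

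The most abundant leaf transcripts had small differences between the sprays. The 100 genes with the highest mean FPKM (fragments relative to transcript length and library size), from 1579 to 9384, had log2 fold changes between -0.44 and 0.21 with a median of 0.04. The interval lay inside 1.5-fold for 97 of them and inside 2-fold for 98. An unadjusted edgeR p below 0.05 was found for 3 of the 100, all lower in irrigated_LRM, against 8.70% of all genes. These 100 genes took 34.0%, 34.4% and 34.0% of the counts in irrigated_LRM 1 to 3, and 31.2%, 34.2% and 34.6% in irrigated_water 1 to 3. The means differed by 0.798 percentage points, with p = 0.9 in a two-sided exact permutation test whose smallest possible p is 0.1. Without irrigated_water 1, the lowest library, the difference was -0.273 percentage points.

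The 3 subgenomes had similar shares. An unadjusted p below 0.05 was found for 8.56% of 18640 genes on subgenome A, 8.76% of 19836 on B and 8.76% of 18750 on D, and the median log2 fold changes were -0.0011, -0.0012 and -0.00088 on A, B and D. Intervals lay inside 2-fold for 69.8%, 69.9% and 68.7% of genes on A, B and D. Over the 41 chromosome arms the share with an unadjusted p below 0.05 ran from 6.60% (6BS) to 11.5% (5AS and 5DS), and the median log2 fold change from -0.04 (6AS) to 0.03 (1DL).

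Complete separation of the libraries was seen for 9232 genes (16.1%). All 3 irrigated_LRM libraries lay above all 3 irrigated_water libraries for 4576 genes (8.00%) and below them for 4656 genes (8.14%). The genes given next had no overlap, an average of 5 CPM or more in the higher group and the smallest unadjusted p in their direction, and none was called by edgeR. They were picked by these same values, so their fold changes and intervals in part describe the choice.

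Traes_5BL_2F6B306DD had 17.6, 18.3 and 17.8 CPM in irrigated_LRM 1 to 3, and 10.3, 12.2 and 11.9 CPM in irrigated_water 1 to 3. The means were 17.9 ± 0.371 CPM in irrigated_LRM and 11.5 ± 1.05 CPM in irrigated_water (SD, n = 3 each), and the libraries within each spray lay close together. The log2 fold change was 0.64 (SE 0.11) with an edgeR adjusted p of 0.319, and the 95% interval ran from 0.41 to 0.88. DESeq2 called this gene, with an adjusted p of 0.000712. Under drought the levels lay the other way, at 10.5, 8.81 and 8.57 CPM in drought_LRM and 11.5, 10.96 and 12.8 CPM in drought_water. The drought log2 fold change of -0.34 was not called by edgeR (adjusted p = 0.085). The difference between the 2 spray contrasts, drought minus irrigation, was -0.98 in log2 units (SE 0.16), with an adjusted p of 0.0221 in the edgeR test of the interaction. Its interaction was no longer called, at edgeR adjusted p from 0.0516 to 0.0694, without irrigated_LRM 1, 2 or 3, irrigated_water 2, drought_LRM 2 or drought_water 2. The gene was picked by its irrigated values, which this test also uses.

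Traes_7AL_28BE3C9DC had 6.68, 5.49 and 4.38 CPM in irrigated_LRM 1 to 3, and 2.75, 2.80 and 2.39 CPM in irrigated_water 1 to 3. Its 3 irrigated_LRM libraries were also above all 6 drought libraries, which ran from 2.04 to 2.88 CPM. Only irrigated_LRM averaged 5 CPM or more, as the rule asks of the higher group, so this in part describes the choice. The log2 fold change was 1.06 (SE 0.18, edgeR adjusted p = 0.319), and the 95% interval from 0.64 to 1.41 reached past 2-fold.

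Traes_5BL_C9FD62D61 was lower in irrigated_LRM, with 3.27, 2.94 and 3.07 CPM in irrigated_LRM 1 to 3 and 7.26, 7.08 and 6.07 CPM in irrigated_water 1 to 3. Its log2 fold change was -1.13 (SE 0.21, edgeR adjusted p = 0.319) with an interval from -1.54 to -0.72. Its levels in the drought libraries, 2.38 to 4.78 CPM, were near those of irrigated_LRM and below all of irrigated_water. Here only irrigated_water averaged 5 CPM or more, so this too in part describes the choice. Traes_1DL_6EA41AECB had 2.56, 3.01 and 4.01 CPM in irrigated_LRM 1 to 3, and 6.98, 7.66 and 6.72 CPM in irrigated_water 1 to 3. Its log2 fold change was -1.15 (SE 0.21, edgeR adjusted p = 0.319) with an interval from -1.62 to -0.72. Both genes were clear of overlap by more than 1 CPM, yet neither was told apart from the rest of the table after adjustment.

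**Figure D4:**
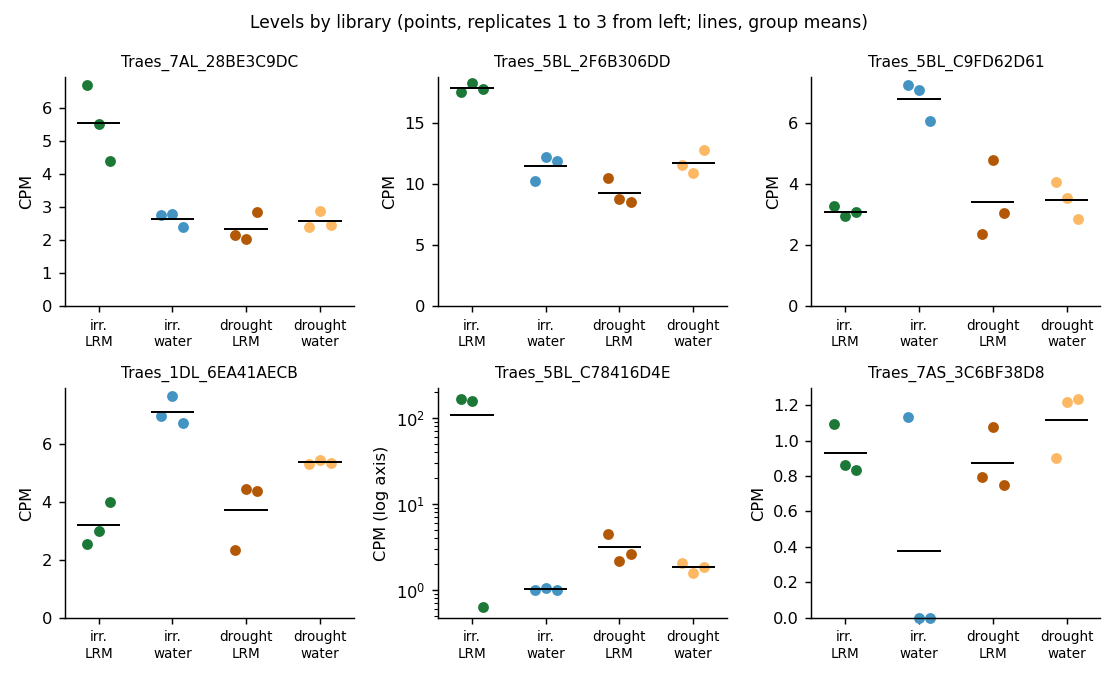
TMM-scaled CPM (y axis; log axis for Traes_5BL_C78416D4E) in each library of the 4 groups (x axis), points for replicates 1 to 3 from left and lines for means. The first 4 genes have irrigated_LRM and irrigated_water libraries that do not overlap, while Traes_5BL_C78416D4E is high in 2 irrigated_LRM libraries only and Traes_7AS_3C6BF38D8 is at 0 in 2 irrigated_water libraries.

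A 2-fold difference in a well expressed gene was rare under full irrigation. Of 18740 genes averaging 5 CPM or more in the higher group, 32 (0.171%) had a log2 fold change of at least 1 either way, 23 higher and 9 lower in irrigated_LRM. The libraries did not overlap for 17 of the 23 and for 8 of the 9, against 21.0% of genes that averaged 5 CPM or more. The 32 were picked for their fold change in these same libraries, so this follows in part from the choice. By the same measure 894 of 19586 genes differed 2-fold between the sprays under drought. The 32 identifiers are fewer than 32 independent signals, because 14 of them fell into 3 sets with nearly the same profile (r above 0.99 and log2 fold changes within 0.2), which leaves 21 profiles. The count was 76 without irrigated_LRM 3 and 77 without irrigated_water 1, and 24 to 37 without any other single library.

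The largest of these sets holds 8 identifiers, each on another chromosome arm, among them Traes_5DS_43D9860BB, chosen after its values were seen. It had 42.3, 16.4 and 13.8 CPM in irrigated_LRM 1 to 3, and 9.70, 7.64 and 9.76 CPM in irrigated_water 1 to 3. The irrigated_LRM libraries were all above the irrigated_water ones, but replicate 1 alone was more than 2-fold above any other irrigated library. The log2 fold changes of the 8 identifiers ran from 1.37 to 1.45 with edgeR adjusted p from 0.521 to 0.547. Their median level under drought was 3.56, 26.6 and 4.69 CPM in drought_LRM 1 to 3, and 2.13, 1.98 and 2.38 CPM in drought_water 1 to 3. Again 1 library, here drought_LRM 2, stood far above the rest. Over the 23 higher genes the highest library was irrigated_LRM 1 in 16 and irrigated_LRM 2 in 7, and never irrigated_LRM 3. These are identifiers and not independent signals. The 16 include all 8 of the largest set and the near-copies Traes_6DL_1CCB8CC4B and Traes_6DL_1CCB8CC4B1. The 7 include the 4 identifiers with the stem Traes_5AS_8DF82307C.

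A second group among the 23, picked after the values were seen because no drought_LRM library reached 1 CPM, lay on the short arms of chromosomes 5A (4 identifiers), 5B (3) and 5D (1). Traes_5BS_DF2486215 had 6.74, 9.06 and 4.13 CPM in irrigated_LRM 1 to 3, and 1.93, 2.55 and 2.55 CPM in irrigated_water 1 to 3. Under drought it had 0.340, 0 and 0.235 CPM in drought_LRM 1 to 3, and 0.946, 0.845 and 1.14 CPM in drought_water 1 to 3. Its LRM libraries thus lay above the water libraries with irrigation and below them with drought. Since the group was chosen for high levels in irrigated_LRM and levels near 0 in drought_LRM, this pattern is a description of the choice and was given no test.

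Median levels of the 8 identifiers were 7.30, 9.18 and 3.67 CPM in irrigated_LRM 1 to 3 and 2.94, 2.52 and 3.30 CPM in irrigated_water 1 to 3. They were 0.238, 0.108 and 0.118 CPM in drought_LRM 1 to 3 and 0.849, 0.770 and 1.15 CPM in drought_water 1 to 3. The log2 fold changes, LRM over water, ran from 1.09 to 1.495 under full irrigation and from -2.77 to -2.07 under drought. Of the 8, 4 share the identifier stem Traes_5AS_8DF82307C and nearly the same counts.

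The difference between the sprays itself differed between drought and full irrigation for a small share of genes. The interaction in edgeR, the spray difference under drought minus that under full irrigation, was called for 487 genes (0.851%), 267 positive and 220 negative. In these genes the median size of the log2 fold change between sprays was 0.21 under full irrigation and 1.14 under drought. The genes were picked by these same values, so the medians and the counts that follow in part describe the choice. The interval under full irrigation lay inside 2-fold for 380 of the 487 (78.0%), against 69.4% of all tested genes. An unadjusted edgeR p below 0.05 under full irrigation was found for 127 of the 487, against 8.70% of all tested genes. The spray differences under irrigation and drought had opposite signs in 391. The interaction count rested on single libraries: it ran from 20 without irrigated_water 2, 25 without drought_water 2, 30 without irrigated_LRM 2 and 37 without irrigated_LRM 1 through 95 without irrigated_LRM 3, 135 without drought_LRM 2, 169 without irrigated_water 1, 181 without irrigated_water 3, 193 without drought_water 3 and 224 without drought_LRM 1 to 323 without drought_LRM 3 and 1279 without drought_water 1.

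Genes called between the sprays under drought mostly had an interval inside 2-fold under full irrigation, but at 5 CPM and over less often than all genes. The group means of these 2 comparisons share no library, but each gene's spread was estimated over the libraries of all groups. That spread enters the drought calls as well as the irrigated intervals and p-values. The shares that follow are therefore not independent of the calls. Of the 4859 genes called between the sprays under drought, 4022 (82.8%) had an irrigated interval inside 2-fold, against 69.4% of all genes, but the called genes were counted more deeply, with a median counting SE of 0.072 against 0.130. Among genes that averaged 5 CPM or more the shares were 94.0% of 3108 called genes and 97.4% of all. In that tier the share was 89.7% of the 1455 genes higher and 97.9% of the 1653 genes lower in drought_LRM. Of the 4859 genes at all levels, 1637 differed 2-fold or more under drought. Of these 1637, 885 (54.1%) had an irrigated interval inside 2-fold, against 69.4% of all genes. The 2439 genes higher in drought_LRM had a median log2 fold change of 0.06 under irrigation, and 208 had an unadjusted edgeR p below 0.05 with higher levels in irrigated_LRM against 61 with lower levels. The 2420 genes lower in drought_LRM had a median of -0.09, with 79 higher and 243 lower in irrigated_LRM at an unadjusted p below 0.05. Over all genes those shares were 4.36% and 4.33%.

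Most of the 251 genes that DESeq2 called differed by less than 1.5-fold. The median size of log2 fold change over the 251 was 0.44, 52 differed 1.5-fold or more and 3 differed 2-fold or more. The limma-voom interval lay inside 2-fold for 227 of the 251 (90.4%). All 251 averaged at least 6.6 CPM, and 97.4% of all genes that averaged 5 CPM or more had an interval inside 2-fold. The libraries of the sprays did not overlap for 250 of the 251, against 16.1% of all tested genes and 21.0% of those that averaged 5 CPM or more. DESeq2 called the 251 from these same libraries, so this follows in part from how the genes were chosen. Their median level was 26.1 CPM, and edgeR gave them unadjusted p up to 0.0289 and adjusted p from 0.319 to 0.521.

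Traes_5BL_C78416D4E, called by DESeq2 (adjusted p = 6.77e-05), had the largest of the 32 log2 fold changes of at least 1 among well expressed genes. It had 167, 156 and 0.630 CPM in irrigated_LRM 1 to 3, from 6113, 4730 and 25 counts, and 0.993, 1.07 and 1.002 CPM in irrigated_water 1 to 3. In the drought libraries it had 1.59 to 4.53 CPM. Both high libraries are LRM-sprayed and irrigated, but irrigated_LRM 3 lay below all irrigated_water libraries, so the sprays overlap. The edgeR log2 fold change was 6.71 (SE 1.21, adjusted p = 0.319), and the limma-voom interval ran from -1.16 to 10.29. Without irrigated_LRM 3, edgeR called this gene with an adjusted p of 2.32e-08.

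Genes present under one spray and at 0 under the other were few and low. With 0 counts in all irrigated_water libraries, 78 of the tested genes had at least 10 counts over irrigated_LRM, and 25 of them had counts in all 3 irrigated_LRM libraries. With 0 counts in all irrigated_LRM libraries, 86 of the tested genes had at least 10 counts over irrigated_water, and 26 of them had counts in all 3 irrigated_water libraries. The highest mean was 3.81 CPM in irrigated_LRM and 1.25 CPM in irrigated_water. Of the 78 genes 77, and of the 86 all 86, had counts in at least 1 drought library.

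Over all identifiers, 225 had 0 counts in some irrigated libraries and at least 20 counts in each of the others, and 11 of these are among the 78 and 7 among the 86 above. For 130 of them the 0 stood in 1 library only. It stood in exactly the 3 irrigated_LRM libraries for 2 genes and in exactly the 3 irrigated_water libraries for 0. Counts in the libraries that were not at 0 reached 1826, and 104 of the 225 had counts in all 6 drought libraries. Traes_7AS_3C6BF38D8 and Traes_7AS_5A696D90A, on the short arm of 7A, have this pattern. The counts of Traes_7AS_3C6BF38D8 were 40, 26 and 33 in irrigated_LRM 1 to 3 and 40, 0 and 0 in irrigated_water 1 to 3, with 20 to 55 in the drought libraries. The counts of Traes_7AS_5A696D90A were 40, 29 and 35 in irrigated_LRM 1 to 3, and 54, 0 and 0 in irrigated_water 1 to 3. Both were at 0 in the same 2 libraries, and both were also called by edgeR with irrigated_LRM 1 and irrigated_water 1 left out together (adjusted p = 0.0491 each).

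Traes_2BL_E017D35AF had 114, 93 and 72 counts in irrigated_LRM 1 to 3, and 106, 0 and 0 counts in irrigated_water 1 to 3. EdgeR called these 3 genes when irrigated_water 1, their only irrigated_water library with counts, was left out (adjusted p of 0.00894, 0.00894 and 0.0281). Traes_1DL_D1B20A33C had 0, 0 and 64 counts in irrigated_LRM 1 to 3, and 68, 48 and 46 counts in irrigated_water 1 to 3, and was called by edgeR without irrigated_LRM 3 (adjusted p = 0.0101). Such libraries at 0 occurred in both sprays: irrigated_LRM 1 to 3 held the 0 for 89, 92 and 61 of the 225 genes, and irrigated_water 1 to 3 for 73, 58 and 88.

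Limma on log2(FPKM + 1) of all genes with a value called 3 genes, all at the low end of the table. Traes_1BL_BE5D040D3 was listed at 0 in irrigated_LRM 1 to 3 and at 0.266, 0.214 and 0.289 FPKM in irrigated_water 1 to 3, from 2 counts in each. Traes_5DL_8FEE31116 was listed at 0 in irrigated_LRM 1 to 3 and had 4, 7 and 5 counts in irrigated_water 1 to 3. Both were at 0 in all drought libraries and were too low for the edgeR fit. Traes_2BS_0DE7A8445 had 11, 9 and 12 counts in irrigated_LRM 1 to 3, and 3, 4 and 4 counts in irrigated_water 1 to 3. Its edgeR log2 fold change was 1.51 (SE 0.80, adjusted p = 0.635), and it was near 0 under drought, with 0 to 2 counts a library.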

How the data were processed

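Leaf polyA RNA was sequenced in 12 libraries of 4 groups. The deposited table holds whole-number read counts per gene, judged from its values. The authors' second table holds FPKM, judged from its values, with 173 cells of 171 genes that were 1000 times too high, which were divided by 1000. FastQC, HISAT2, StringTie and DESeq2 are named in the submitters' processing notes, without versions. Build, annotation, strand setting and handling of multiply mapped reads: not given in the sources used here. Of 99386 identifiers 75198 had a count, and 57226 passed filterByExpr.

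All 12 libraries entered 1 fit of 4 group means with edgeR 4.0.16 (R 4.3.3), TMM and the quasi-likelihood test, with Benjamini-Hochberg adjustment over all tested genes and a threshold of 0.05. Each standard error was obtained from the F value. Intervals came from limma-voom 3.58.1, and DESeq2 1.42.0 on all genes with a count was an alternative. The FPKM table served for ranking and for limma on log2(FPKM + 1) or log2(FPKM + 0.1), which understates changes of low genes. Correlations and distances between libraries used log2(CPM + 0.5). Counting errors treat reads as independent molecules and cover counting error only. Replicate pairs differed by more than sampling noise, with a chi-square per degree of freedom of 4.17 to 20.3. The edgeR test and the limma-voom intervals of the irrigated comparison were tried on simulated counts, and the other procedures were not.

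Named genes were, among genes whose sprays did not overlap and whose higher spray averaged 5 CPM or more, the 2 higher and the 2 lower with the smallest p, plus genes that an alternative calls when it calls 5 or fewer. The comparison, lists and tests were chosen with earlier results of these data known. Alternatives were other normalizations, filters, tests, single libraries left out and a replicate block.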

Additional observations from a re-analysis of the deposited data

Results flagged for a closer look

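The difference between sprays differed between drought and full irrigation, by the edgeR test of the interaction itself, for 487 of 57226 genes. For Traes_5BL_2F6B306DD the interaction was -0.98 on the log2 scale (edgeR adjusted p = 0.0221), with a higher level in LRM libraries under irrigation and a lower one under drought. Neither spray difference was called by edgeR on its own, at adjusted p of 0.319 under irrigation and 0.085 under drought. The gene was picked for its small p under irrigation, whose values the interaction also uses. With single libraries left out, the edgeR adjusted p of the interaction ran from 0.0121 to 0.0694 for Traes_5BL_2F6B306DD, and the difference kept its sign each time. That adjusted p was 0.0932 with irrigated_LRM 1 and irrigated_water 1 out together, and 0.141 with drought_LRM 2 out as well. The count of 487 ran from 20 without irrigated_water 2 to 1279 without drought_water 1.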

How the results depend on the processing

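Under full irrigation edgeR called 0 genes under every count setting tried except with libraries left out, where it called 0 to 3 with 1 library out and 2 with irrigated_LRM 1 and irrigated_water 1 out, an alternative chosen after seeing the data. Limma-voom and limma on filtered log2(FPKM + 1) and log2(FPKM + 0.1) called 0, log2(FPKM + 1) without a filter 3, and DESeq2 251 on all genes, 211 on the filtered genes and 293 on the 6 irrigated libraries, where the cause was not tested. With a filter at a mean of 5 CPM, which tests fewer genes, the counts were 1099 higher and 1230 lower at an unadjusted p below 0.05, 3787 without overlap, 17891 bounded within 2-fold after adjustment, 16 that differed 2-fold and 870 interaction calls. The counts at an unadjusted p below 0.05 were 1490 higher and 1338 lower on log2(FPKM + 1), 1516 and 1311 on log2(FPKM + 0.1), 1561 to 2901 higher with 1 library out, and 1607 lower with both replicates 1 of the irrigated groups out. The SD of log2 fold changes over all tested genes was 0.54 with all libraries and the filter. It was 0.36 in the irrigated libraries alone, 1.097 without a filter and 0.24 with the 5 CPM filter. With 1 drought library out it was 0.59 to 0.61, and with 1 irrigated library out 0.69 to 0.76. It was 0.77 with irrigated_LRM 1, irrigated_water 1 and drought_LRM 2 left out and 0.78 with the irrigated ones of these left out. The filter was applied anew to each set of libraries, so the tested genes can differ between these values. Intervals inside 1.5-fold in place of 2-fold held 39.2% of genes. With 1 library left out, 24 to 77 well expressed genes differed 2-fold, 1700 to 5316 were called between the sprays under drought, and the share of the 100 most abundant genes differed by -0.273 to 1.44 percentage points.

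The interaction count of 487 was 20 to 1279 with 1 library out, 12 and 54 with the 3 and the 2 libraries above left out, 773 on log2(FPKM + 1), 1742 with DESeq2 and 1731 with DESeq2 on the filtered genes. The replicate block gave 811 interaction calls and 0 calls under full irrigation. Same-numbered irrigated_LRM and irrigated_water libraries deviated together with r = 0.43, 0.27 and 0.02 for numbers 1 to 3, and only replicate 1 of irrigated_LRM correlated best with its own number, so the numbers were not taken to pair the samples. The 4 genes named by the rule kept their direction under all alternatives that gave them a value, and 1 of them, Traes_5BL_2F6B306DD, was called by DESeq2. At these depths the intervals of most genes under 1 CPM left room for a 2-fold change.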
